A study of Mus musculus with 4 samples.

Results

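The S100 calcium-binding proteins followed here were the products of 8 genes, S100a1, S100a4, S100a6, S100a8, S100a9, S100a10, S100a11 and S100a13, chosen by gene symbol as a named family, with earlier results of these data known. Each gene was represented by 1 probe, so that 8 of the 25697 probes on the array, and 8 of its 16590 named genes, were followed. The probes were measured in spleen RNA from 4 female C57BL/6N mice, 8 to 12 weeks old, on Illumina MouseRef-8 v2.0 bead arrays with biotin-labelled RNA extracted in Trizol. This age range is that of the methods for spleen RNA, whereas the paper's figure legend for the arrays gives 8 weeks. Of the 4 mice, 2 were Snd1 knockout (KO) animals and 2 were wild type (WT), described as biological duplicates, and each sample was hybridised to its own array. Values are given for replicate 1 and then replicate 2 of each group. Snd1 encodes a conserved RNA-binding protein that carries staphylococcal nuclease-like domains and a Tudor domain, and the comparison asked how its loss altered gene expression in the spleen. The KO allele lacks the first exon of Snd1. It was made by flanking this exon with loxP sites in 129/Sv embryonic stem cells and removing it in the germline with a CAG-driven Cre, so that every cell of the mouse carries the deletion and the KO spleen is no model of loss in a single cell type. The line was backcrossed to C57BL/6N, and KO and WT mice were taken from litters of heterozygous parents. Neither slide nor scan is named for these arrays in the labels or methods, and no batch was tested.

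S100 proteins are small vertebrate proteins that bind calcium through a pair of EF-hand motifs, mostly act as dimers, and have no enzymatic activity of their own. Inside the cell, calcium binding exposes a surface through which they bind target proteins such as annexins, cytoskeletal motors and ion pumps, while several members are also released and act on cell surface receptors. S100a8 and S100a9 form the heterodimer calprotectin, the main calcium-binding protein of the neutrophil cytosol, which sequesters zinc and manganese from microbes and, once released, activates Toll-like receptor signalling and binds the receptor Ager (RAGE). Their genes are expressed as myeloid cells mature, and the spleen of a mouse holds such cells in its red pulp.

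All 8 genes lie on chromosome 3, in the order S100a1, S100a13, S100a4, S100a6, S100a8, S100a9, S100a11 and S100a10 in the RefSeq annotation of build GRCm38.p6, with 0 annotated genes between S100a8 and S100a9. The 250 bases upstream of the start of these neighbouring genes are shown because they were the 2 members with the largest differences between Snd1 KO and WT spleens. Both are taken from RefSeq (GRCm38.p6), each written 5' to 3' along its own gene, which for S100a8 is chr3:90668821-90669070 on the plus strand and for S100a9 is chr3:90695722-90695971 on the minus strand. The capitals mark matches on either strand to TTNNGNAA, the core letters bound by C/EBP factors, or to GAGGAA, a core bound by PU.1, both of which are myeloid regulators.
S100a8: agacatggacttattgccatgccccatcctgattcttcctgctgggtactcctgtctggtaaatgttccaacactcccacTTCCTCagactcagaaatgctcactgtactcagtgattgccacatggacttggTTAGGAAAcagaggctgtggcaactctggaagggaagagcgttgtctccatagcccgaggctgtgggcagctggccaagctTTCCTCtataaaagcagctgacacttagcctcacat
S100a9: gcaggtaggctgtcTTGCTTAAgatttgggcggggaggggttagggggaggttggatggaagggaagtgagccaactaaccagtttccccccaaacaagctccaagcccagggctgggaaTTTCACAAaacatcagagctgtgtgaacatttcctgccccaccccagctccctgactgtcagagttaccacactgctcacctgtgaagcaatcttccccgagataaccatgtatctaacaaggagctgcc
The S100a8 window held 1 match to TTNNGNAA, 117 bases before the start, and 2 matches to GAGGAA, 170 and 36 bases before it. The S100a9 window held 2 matches to TTNNGNAA, 236 and 130 bases before the start, and 0 matches to GAGGAA. No matches overlapped, and neither window held TTCNNNGAA, the letters bound by STAT factors. Of the 8 genes, 7 had a window in the RefSeq table. Among these, S100a11 held 1 match to GAGGAA, 153 bases before its start, whereas the windows of S100a1, S100a4, S100a6 and S100a13 held none of the 3 motifs. Such letters are common: of 32817 mouse promoters of the same length, 36.8% held TTNNGNAA, 23.3% GAGGAA and 7.01% TTCNNNGAA. These matches describe the letters only and were not linked to binding in the spleen.

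The arrays were of similar quality, with 12908 and 12684 probes detected above the negative controls on the KO arrays and 12609 and 12396 on the WT arrays. The normalized log2 intensities of tested probes correlated with r = 0.984 between the KO arrays and r = 0.972 between the WT arrays, so that the WT arrays were no closer to each other than to the KO arrays. Snd1 itself, measured by 1 probe whose position relative to the deleted exon was not checked, had log2 intensities of 4.45 and 4.58 on the KO arrays, against 6.71 and 7.09 on the WT arrays. It was not above background in either KO spleen, so the fold is a bound taken against the lowest signal detected on each KO array, at least 3.87-fold lower in KO (limma adjusted p = 0.0869). B cell markers of the spleen were present, with 5 of 5 such genes on the array passing the detection filter and summed signals of 10414 and 14687 in KO spleens against 12133 and 15731 in WT spleens. Sums over a marker list are of normalized intensities on the linear scale, over all its genes on the array. Markers of tissues outside the spleen or of its capsule and stroma also had unequal values between the groups, though none passed the adjusted threshold. Of 10 mesothelial genes, 8 had higher and 2 lower means in KO spleens. Gpm6a, Krt18, Krt19 and Msln were not detected on any array, and the 2 with lower means were among them. Upk1b passed the filter only through the KO arrays, and the other 5 all had higher means in KO spleens. The list summed to 4569 and 4407 in KO spleens and 2346 and 2115 in WT spleens. Fibroblast and smooth muscle genes, 8 of 11 with higher means, summed to 13021 and 14442 in KO spleens against 10646 and 10253 in WT spleens. The gap between these sums rests largely on Dcn (log2 difference 1.61), at 11.74 and 11.71 in KO spleens and 9.96 and 10.27 in WT spleens. The smooth muscle genes Acta2 (0.04), Tagln (-0.11) and Myh11 (-0.03) overlapped between the groups. Liver genes had higher means in 7 of 8, among them Alb, which was not detected on any array. The list summed to 2201 and 2755 in KO spleens and 2071 and 2180 in WT spleens. These sums rest largely on Trf, the 1 gene with a lower mean. Its log2 intensity was 10.56 and 11.05 in KO spleens and 10.89 and 10.97 in WT spleens. Apoa1, Ttr, Fga, Fgg and Cyp2e1 were detected on both KO arrays and no WT array, so these 5 passed the filter only through KO. Cyp2e1 was highest on KO replicate 2 and the others on KO replicate 1. Apoc3 was detected on 1 KO array alone. Fat genes had higher means in 4 of 7, and the 3 with lower means, Fabp4, Plin1 and Retn, were not detected on any array. They summed to 1868 and 2884 in KO spleens against 1170 and 1060 in WT spleens, highest on KO replicate 2. Adipoq and Ces1d had log2 intensities of 9.69 and 8.54 there, against 5.18 and 6.17 on KO replicate 1. Both passed the filter only through the KO arrays. On the other arrays the sum was mostly Lpl, at 10.71 on KO replicate 1 and 10.01 and 9.85 on the WT arrays. Pancreatic genes stood out on KO replicate 1 alone, with sums of 2297 and 361 in KO spleens and 516 and 407 in WT spleens.

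No S100 gene passed the test between Snd1 KO and WT spleens after Benjamini-Hochberg adjustment over all 12493 tested probes, of which 2, or 0.016%, passed. S100a8 and S100a9 stood lowest in KO spleens relative to WT, S100a1 and S100a11 were also lower on both KO arrays than on both WT arrays but by smaller amounts, S100a10 was higher on both, and S100a4, S100a6 and S100a13 overlapped between the groups. All 8 probes were tested and 7 were detected on all 4 arrays. On average 5 genes were lower and 3 higher in KO spleens. Among the 5, S100a4 passed the filter only through the WT arrays. The median log2 difference (KO minus WT) of the 8 was -0.22, beside -0.0054 over all tested probes. In KO spleens 4 of the 8 genes lay below both WT values, compared with 18.5% of all tested probes, and 1 of the 8 lay above both, as did 19.4% of all tested probes. At an unadjusted p under 0.05, 2 of the 8 were lower, S100a8 and S100a9, beside 2.78% of all tested probes, and 0 of the 8 were higher, beside 3.31%. With the arrays scaled to a common median in place of quantile normalization, the lower probes made up 30.0% of all those at that p, compared with 45.6% here. An exact permutation test on a single gene could not have gone below p = 0.333 with 2 arrays in each group.

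**Figure D1:**
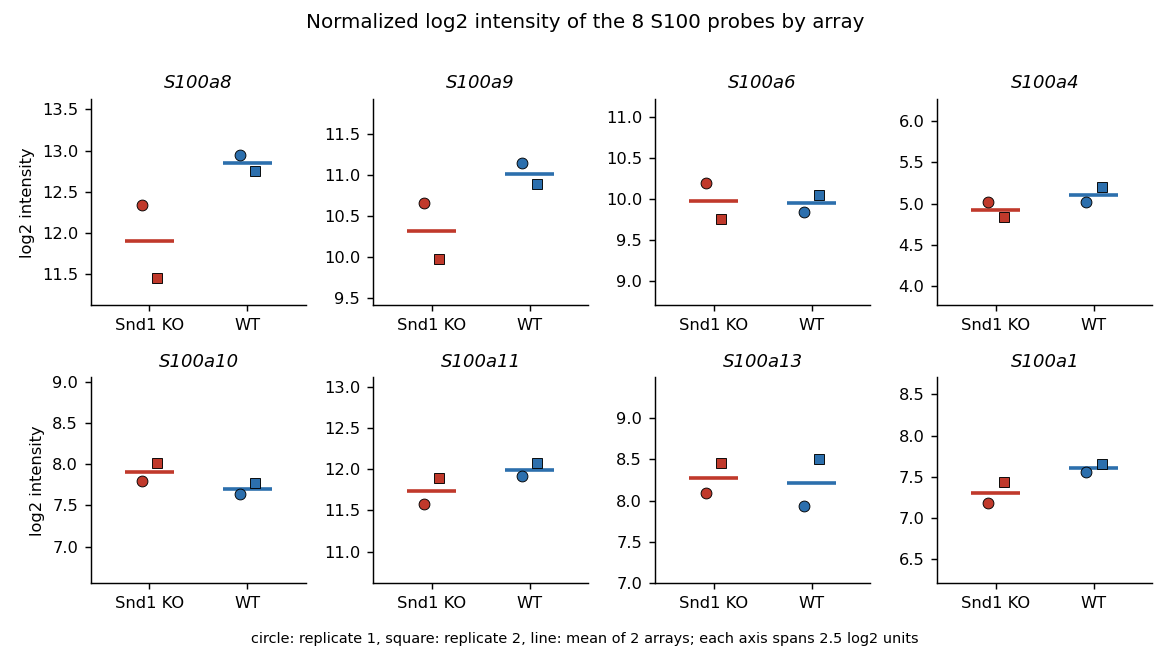
Normalized log2 intensity (vertical axis, spanning the same number of log2 units in every panel) of each S100 probe on the 2 Snd1 KO arrays (left, red) and the 2 WT arrays (right, blue), with circles for replicate 1, squares for replicate 2 and a line at the mean. S100a8 and S100a9 lie lower on both KO arrays than on both WT arrays, with KO replicate 2 the lowest, whereas S100a4, S100a6 and S100a13 overlap.

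S100a8, which carries the name calgranulin A and is the less stable partner of calprotectin, had the largest difference of the family. Its deposited signal was 5379 and 2996 in KO spleens, against 8028 and 6581 in WT spleens. The normalized log2 intensity was 12.34 and 11.45 in KO spleens and 12.95 and 12.75 in WT spleens. Both KO values were thus below both WT values, and the KO spleens stood further apart from each other than the WT spleens did, by 0.89 against 0.20 on the log2 scale, with KO replicate 2 the lowest array. This gave a log2 difference of -0.95 ± 0.32 (SE; 95% confidence interval -1.77 to -0.14), or 1.94-fold lower in KO. The limma adjusted p was 0.771, with an unadjusted p of 0.0297, so S100a8 did not pass the test. Only 1.02% of tested probes had a larger absolute difference. Leaving out KO replicate 2 gave a log2 difference of -0.52, and leaving out KO replicate 1 gave -1.41.

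S100a9, calgranulin B, stabilizes S100a8 and carries the long tail through which the heterodimer binds zinc and manganese. Its signal was 1709 and 1150 in KO spleens and 2298 and 1927 in WT spleens. On the log2 scale it had 10.66 and 9.98 in KO spleens, against 11.14 and 10.89 in WT spleens. Again both KO values lay below both WT values and KO replicate 2 was the lowest of the 4, a gap of 0.68 within the KO pair compared with 0.26 within the WT pair. S100a9 had a log2 difference of -0.70 ± 0.27 (SE; 95% confidence interval -1.38 to -0.01), 1.62-fold lower in KO. It missed the threshold after adjustment (limma adjusted p = 0.771, unadjusted p = 0.0471), and 2.19% of tested probes had a larger absolute difference. The difference became -0.35 when KO replicate 2 was left out and -1.04 when KO replicate 1 was left out. The log2 intensity of S100a8 minus that of S100a9 was 1.68 and 1.47 on the KO arrays, and 1.81 and 1.86 on the WT arrays. Whether the 2 probes differed by unequal amounts was not tested. Both were read on the same arrays, so their separate standard errors do not measure the error of that gap.

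**Figure D2:**
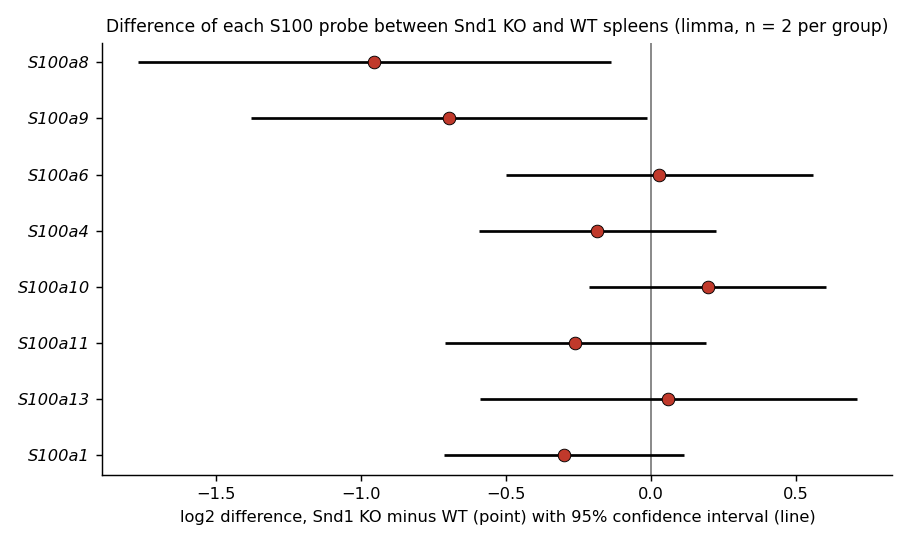
Log2 difference of each S100 probe, Snd1 KO minus WT (horizontal axis; points), with its 95% confidence interval from limma (lines), from 2 arrays per group. The intervals of S100a8 and S100a9 lie below 0 before adjustment for multiple testing, and those of the other 6 genes span 0.

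Genes of neutrophil granules, which are transcribed in neutrophil precursors, were lower together with S100a8 and S100a9. Of 13 genes on the array, 12 had lower means in KO spleens and 11 lay below both WT values, beside 18.5% of all tested probes. Of the 12 that were tested, Fcnb and Ms4a3 were detected in WT spleens alone and passed the filter only through them. Of the other 10, all had lower means, 9 did not overlap, and 7 were lower at an unadjusted p under 0.05, beside 2.78% of all tested probes. None passed the adjusted threshold. Several of these genes are among those the study examined in these spleens, so its direction gives no independent support. The largest log2 differences were those of the cathelicidin Camp (-1.84), the granule protein Ngp (-1.82), lipocalin Lcn2 (-1.69) and myeloperoxidase Mpo (-1.59). Named after their values were seen, lactoferrin Ltf had -1.09 and the gelatinase Mmp9 -0.03 with overlapping groups, and Mmp8 was not detected on any array. The summed signal of the list was 4269 and 1557 in KO spleens, against 7237 and 5861 in WT spleens, lowest on the same KO replicate 2 that was lowest for S100a8 and S100a9 and highest for the fat genes.

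Genes of mature neutrophils behaved less uniformly. Of the 7 tested, 4 had lower and 3 higher means in KO spleens, the median log2 difference was -0.03, and none passed the adjusted threshold. Their summed signal was 2707 and 2443 in KO spleens and 2666 and 2307 in WT spleens, so that the groups overlapped. The chemokine receptor Cxcr2, which releases neutrophils from the marrow, had 6.79 and 7.10 in KO spleens and 7.08 and 6.86 in WT spleens on the log2 scale. Named after their values were seen, Retnlg had a log2 difference of -0.68, Cd177 of -0.81 with overlapping groups and the formyl peptide receptor Fpr2 of 0.56 (limma adjusted p of 0.771, 0.803 and 0.771). Monocyte genes numbered 4 among the tested probes, 3 with lower and 1 with higher means, and their summed signal was 955 and 936 in KO spleens, below the 1247 and 1196 of WT spleens. This gap rested on Chil3, which the granule list also holds. Without it the sums overlapped, at 786 and 811 in KO spleens against 831 and 758 in WT spleens. In a whole spleen, fewer myeloid cells and less S100 RNA in each cell cannot be told apart. The part of these cell types, and of the fat and other tissue markers, in the values of S100a8 and S100a9 was not tested.

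**Figure D3:**
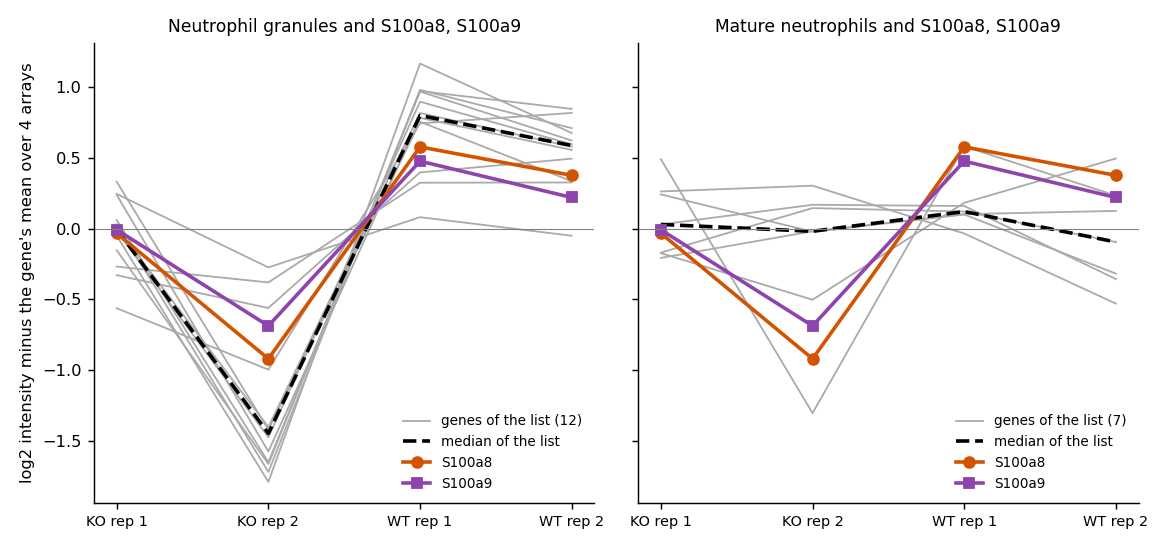
Log2 intensity of each gene minus its own mean over the 4 arrays (vertical axis) on the 2 Snd1 KO and the 2 WT arrays (horizontal axis; lines join the values of 1 gene), for S100a8 and S100a9 beside 12 neutrophil granule genes (left) and 7 mature neutrophil genes (right), with the list median dashed. S100a8 and S100a9 share the low point of the granule genes on KO replicate 2, and the median of the mature neutrophil genes stays near 0 on every array.

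Receptors of released S100a8 and S100a9 showed no common direction. Of 7 such genes, 5 were tested, 2 with lower and 3 with higher means in KO spleens, with a median log2 difference of 0.08 and none past the adjusted threshold. The Toll-like receptor gene Tlr4 had 6.44 and 6.57 in KO spleens and 6.71 and 6.77 in WT spleens, a log2 difference of -0.24 (limma adjusted p = 0.771). Its co-receptor Cd14 had 8.55 and 8.47 in KO spleens, above the 8.20 and 7.69 of WT spleens, a log2 difference of 0.57 (limma adjusted p = 0.771, unadjusted p = 0.0444). Bsg and Cd36 were not detected on any array.

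Transcription factors known to act on myeloid S100 genes had no common direction. Of the 6 tested, 2 had lower and 4 higher means in KO spleens, the median log2 difference was 0.23, and none passed the adjusted threshold. Cebpa, with a higher mean, passed the filter only through the KO arrays, and Cebpe, with a lower mean, only through the WT arrays. Cebpb, a C/EBP factor induced in activated myeloid cells, had 10.33 and 10.47 in KO spleens, above the 9.97 and 9.98 of WT spleens, with a log2 difference of 0.42 (limma adjusted p = 0.771, unadjusted p = 0.0310). Spi1, which encodes PU.1, had 7.70 and 7.31 in KO spleens and 6.96 and 7.23 in WT spleens, a log2 difference of 0.41 (limma adjusted p = 0.771). Cebpe, the C/EBP factor of late granulocyte precursors, had 5.85 and 4.91 in KO spleens against 5.75 and 6.21 in WT spleens. Its groups overlapped, and on KO replicate 2 it was not above background, so that the fitted log2 difference of -0.60 (limma adjusted p = 0.771) rests on a value without a measured level.

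S100a10 and S100a11 are the members best known as partners of annexins, which bind membranes in the presence of calcium. S100a10, also called p11, does not need calcium and forms a heterotetramer with annexin A2 that binds plasminogen at the cell surface. Its signal was 305 and 354 in KO spleens, above the 278 and 291 of WT spleens. The normalized log2 intensity was 7.79 and 8.01 in KO spleens and 7.63 and 7.78 in WT spleens, so the higher WT and the lower KO value nearly met. For S100a10 the log2 difference was 0.20 ± 0.16 (SE; 95% confidence interval -0.21 to 0.60), with a limma adjusted p of 0.816, and 39.9% of tested probes had a larger absolute difference. Its partner Anxa2 also lay higher on both KO arrays, with 12.24 and 12.00 in KO spleens and 11.79 and 11.90 in WT spleens, a log2 difference of 0.28 (limma adjusted p = 0.771).

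S100a11, or calgizzarin, binds annexin A1 and acts in membrane repair and in epidermal growth control. Its signal was 3182 and 3986 in KO spleens, against 3907 and 4306 in WT spleens. On the log2 scale it had 11.58 and 11.89 in KO spleens and 11.92 and 12.08 in WT spleens. Both KO values were below both WT values, though only just at the nearest pair, and here KO replicate 1 was the lowest array, unlike for S100a8 and S100a9. The log2 difference of -0.26 ± 0.18 (SE; 95% confidence interval -0.71 to 0.19) did not pass the test (limma adjusted p = 0.782). Anxa1 was not detected on any array. Over the whole list of annexins and their ligands, 7 of 10 genes were tested, 2 had lower and 5 higher means in KO spleens, the median log2 difference was 0.14 and none passed the adjusted threshold. Plaur, the urokinase receptor of the plasminogen system, was the only gene of the list with an unadjusted p under 0.05. It had 6.55 and 6.69 in KO spleens, below the 7.35 and 7.40 of WT spleens, a log2 difference of -0.76 (limma adjusted p = 0.771, unadjusted p = 0.00337), and was named after its values were seen.

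S100a6, calcyclin, is induced in proliferating cells and fibroblasts and binds the calcyclin-binding protein Cacybp, which was not detected on any array. Its signal was 1275 and 993 in KO spleens and 976 and 1112 in WT spleens. The log2 intensity was 10.20 and 9.76 in KO spleens, against 9.84 and 10.05 in WT spleens, so that the KO values enclosed the WT values. The log2 difference was 0.03 ± 0.21 (SE; 95% confidence interval -0.50 to 0.56), with a limma adjusted p of 0.985. S100a6 changed direction when single arrays were left out, with a log2 difference of -0.19 without KO replicate 1 and -0.08 without WT replicate 1.

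S100a4, known for its link to cell motility and metastasis, binds the heavy chain of non-muscle myosin and marks subsets of fibroblasts and macrophages. It was the only member not detected on every array. Its signal was 114.5 and 110.9 in KO spleens and 115.6 and 118.5 in WT spleens. It was detected on 1 of the 2 KO arrays and on both WT arrays, with a detection p of 0.0702 on KO replicate 2. S100a4 thus passed the filter only through the WT arrays, where its mean was higher. The log2 intensity was 5.02 and 4.83 in KO spleens and 5.02 and 5.20 in WT spleens, and the groups met at the upper KO and the lower WT value. The log2 difference was -0.18 ± 0.16 (SE; 95% confidence interval -0.59 to 0.22), with a limma adjusted p of 0.836, and so near to background a difference on the array understates any difference in RNA. Myh9, the non-muscle myosin heavy chain that S100a4 binds, had 12.09 and 12.17 in KO spleens and 12.19 and 12.12 in WT spleens.

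S100a13 takes part in the release of proteins that lack a signal peptide, among them Fgf1 and Il1a. Its signal was 358 and 453 in KO spleens and 325 and 428 in WT spleens. The log2 intensity was 8.09 and 8.46 in KO spleens and 7.93 and 8.50 in WT spleens, with replicate 1 the lower array in both groups and the KO values lying within the WT range. The WT spleens differed from each other by 0.57, the widest gap between WT arrays in the family. S100a13 showed a log2 difference of 0.06 ± 0.25 (SE; 95% confidence interval -0.59 to 0.71), with a limma adjusted p of 0.971. It turned to -0.12 when KO replicate 2 was omitted, and to -0.23 when WT replicate 1 was omitted. The cargo genes had log2 differences of 0.01 for Fgf1 and 0.31 for Il1a, neither past the adjusted threshold.

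S100a1, best known from heart and skeletal muscle, where it enhances the calcium pump Atp2a2, had a signal of 228.5 and 265.5 in KO spleens, against 267.2 and 275.3 in WT spleens. The log2 intensity was 7.18 and 7.43 in KO spleens and 7.56 and 7.66 in WT spleens. Both KO values were below both WT values, and the nearest KO and WT values lay closer together than the 2 KO values did. The log2 difference was -0.30 ± 0.16 (SE; 95% confidence interval -0.71 to 0.11), or 1.23-fold lower in KO, with a limma adjusted p of 0.771, and 21.3% of tested probes had a larger absolute difference. Atp2a2 had a log2 difference of 0.11. Over the 7 genes on the array that bind S100a1, S100a4, S100a6 or S100a13, 6 were tested, 2 with lower and 4 with higher means and a median log2 difference of 0.06, and none passed the adjusted threshold. Syt1, with a lower mean, passed the filter only through the WT arrays.

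Another 7 genes of the S100 family were on the array. S100a3, S100a5, S100a7a, S100b and S100g were detected on none of the 4 arrays. S100a14, an epithelial member, was detected on both KO arrays and on neither WT array, with log2 intensities of 5.32 and 5.11 in KO spleens and 4.95 and 4.93 in WT spleens. It passed the filter only through the KO arrays, with a detection p of 0.0125 and 0.0288 there against 0.0526 and 0.0689 on the WT arrays. The WT arrays thus narrowly missed the cut of 0.05, and all 4 values lay near background. The bound of at least 1.16-fold higher in KO rests on this cut, and S100a14 did not pass the test (limma adjusted p = 0.771). S100a16 was detected on every array, with 5.62 and 5.45 in KO spleens lying within the WT values of 5.83 and 5.04, and a log2 difference of 0.10 ± 0.29 (SE; limma adjusted p = 0.959). The higher summed signal of the mesothelial genes came from the same KO spleens. The part of that tissue in the values of the epithelial S100a14, which lay near background, was not tested.

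Both the processing and single arrays moved the differences, as the plot of differences under each alternative shows. The median of the 8 genes was -0.13 without background correction or in the value table of the authors, and ran from -0.32 (without WT replicate 1) to -0.13 (without WT replicate 2) with 1 array left out. S100a8 and S100a9 kept lower means in KO spleens in all 13 alternatives each, but much of this was fixed in advance. Filters, probe averaging, prior and replicate block could not change the difference of any member. The authors' value table gave the same differences as the fit without background correction. For a gene whose groups did not overlap, leaving out 1 array could hardly reverse the direction. The unadjusted p of S100a8 stayed under 0.05 in 11 of 13 and that of S100a9 in 10 of 13. The exceptions for both genes were the fits without KO replicate 2 and without WT replicate 1. S100a9 had 1 more, with undetected probes kept, at an unadjusted limma p of 0.0603. The other 3 that did not overlap kept their direction in all 13 but not their size. S100a11 became -0.42 with KO replicate 2 left out and -0.10 with KO replicate 1 left out, and S100a1 was -0.42 and -0.17 with the same arrays left out. For S100a10 the values were 0.09 when KO replicate 2 was omitted and 0.30 when KO replicate 1 was omitted. S100a4 was lower in the 12 alternatives that tested it, at -0.06 without background correction and -0.28 without WT replicate 1. Over all alternatives the lowest limma adjusted p of any member was 0.585.

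**Figure D4:**
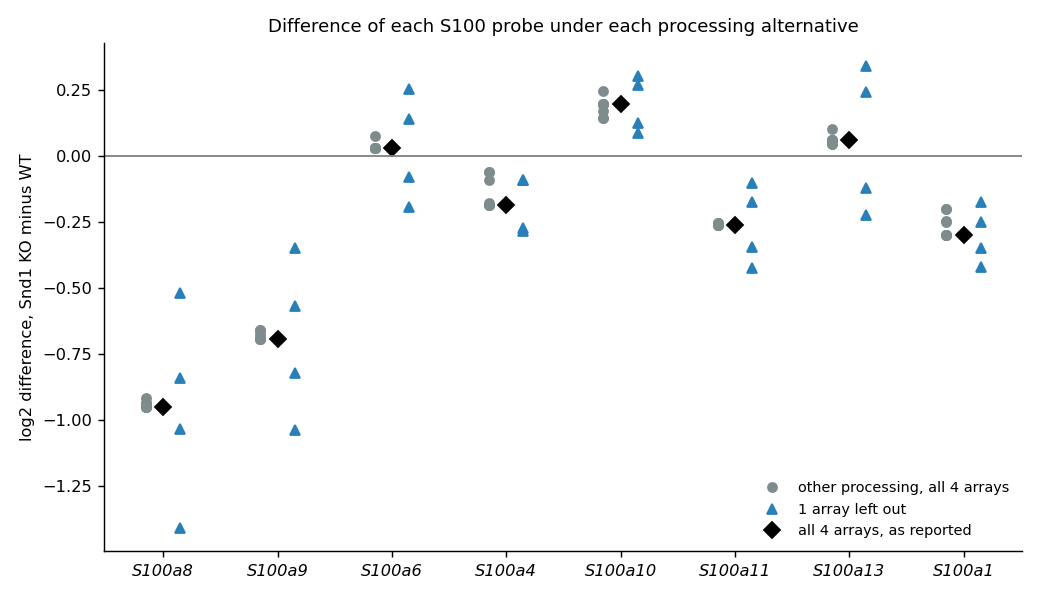
Log2 difference of each S100 probe, Snd1 KO minus WT (vertical axis), with all 4 arrays as reported (diamonds), under other processing of the same 4 arrays (circles) and with 1 array left out (triangles). For S100a8 the triangles run from -1.41 to -0.52, and those of S100a6 and S100a13 lie on both sides of 0.

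The genes whose profiles over the 4 arrays were nearest to those of S100a8 and S100a9 were found by the root mean square distance between values centred on each gene's own mean. Nearest to S100a8 were Kitl (0.11), a dim second probe of Mpo (0.13), S100a9 (0.15), Ninj1 (0.16) and Timm9 (0.18), in log2 units. Except for S100a9, each of these was detected on only 1 of the 2 KO arrays, where values close to background are imprecise. Nearest to S100a9 were Ninj1 (0.04), Ccl9 (0.11), Rita1 (0.11), Ubl4a (0.12) and Mtus2 (0.12). Of these, the chemokine gene Ccl9, the tubulin-binding Rita1 and the ubiquitin-like Ubl4a were detected on all 4 arrays. Likeness over 4 arrays is given as a description only. No tested profile lay within 0.1 of S100a8, and 1 lay within 0.1 of S100a9.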

How the data were processed

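Probe intensity values of 4 spleens were exported by the authors from Illumina Genome Studio without normalization, and the deposited detection columns hold a fraction that equals 1 minus the detection p-value. The authors' value table holds log2 values that matched the quantile normalized signals for all but 1 probe. Its scale and direction are not stated and were settled from this match. The background was corrected by normexp (offset 16), with the negative controls estimated from detection p-values, and signals were then quantile normalized and taken to log2. Probes detected at p under 0.05 on both arrays of a group (12493) were tested with limma 3.58.1 in R 4.3.3 (lmFit, eBayes, Benjamini-Hochberg, threshold 0.05), after the method was tested on simulated data. p-values rest on 2 mice per group. Groups came from the labels. Symbols came from GEO's platform annotation: 23978 probes had 1 symbol, 0 several and 1719 none. Of these symbols, 8 were updated by gene identifier or, where that gave no match, by accession. For genes outside the family with more than 1 probe, the brightest was used. All 8 members were named, with the 5 nearest profiles of S100a8 and S100a9 and selected genes of each list. Members and lists were chosen with earlier results of these data known. Alternatives changed the background correction, offset, scaling, filter, probe averaging, prior, replicate block and single arrays. Counts over marker lists without the filter, and sums without shared genes, were added after seeing the data. A difference in log2 intensity understates the change of dim probes. With 2 arrays per group, the number of arrays limits precision.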

Additional observations from a re-analysis of the deposited data

How the results depend on the processing

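No S100 probe passed the adjusted threshold of 0.05 under any alternative. The 2 probes of the whole array that passed became 0 without background correction, 0 with the authors' value table, 0 without the detection filter, 4 with an offset of 50 and 8 with a trended robust prior, and ranged over 0 to 14 when 1 array was left out, with 14 without WT replicate 1. S100 probes lower at an unadjusted p under 0.05 numbered 2, against 1 without the filter and 0 to 2 when 1 array was left out (0 without KO replicate 2 and 0 without WT replicate 1). The median difference of the members, -0.22, stayed below 0 throughout but was -0.13 on signals left uncorrected for background and in the table of the authors, and ranged over -0.32 to -0.13 when 1 array was left out, with -0.13 without WT replicate 2. With 1 array left out, S100a6 ranged over -0.19 to 0.25 and S100a13 over -0.23 to 0.34. S100a6 reversed when KO replicate 1 (-0.19) or WT replicate 1 (-0.08) was omitted, and S100a13 when KO replicate 2 (-0.12) or WT replicate 1 (-0.23) was omitted. The cause was not tested. Replicate numbers are shared between groups but nothing in the labels pairs the mice, and their deviations correlated with r = 0.188 over probes. The paper used a paired t-test for its spleen qRT-PCR, but its methods name no pairs of arrays. With a replicate block, 0 probes of the array passed and no S100 call changed. The block could not alter any difference in this balanced design, so the median of the members stayed at -0.22. The unadjusted limma p became 0.00862 for S100a8 and 0.0121 for S100a9, with a limma adjusted p of 0.585 for both. With 2 arrays per group, the median standard error over tested probes was 0.17 on the log2 scale. S100a4 was too near background to pass the stricter filter, and 5 other S100 probes were not detected on any array.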
